A study of Mus musculus with 4 samples.

Results

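Testis RNA was compared between 2 WT and 2 *Ccnyl1*-/- mice. The 8 genes compared are genes of selenium supply, of the sperm mitochondrial capsule and of the sperm thioredoxins, and a peroxiredoxin gene. They are *Selenop*, the gene called *Sepp1* in the study, its receptor gene *Lrp8*, the capsule genes *Gpx4* and *Smcp*, the sperm thioredoxin genes *Txnrd3*, *Txndc2* and *Txndc8*, and the peroxiredoxin gene *Prdx4*. Members were taken by name, as the probe sets that the platform annotation pairs with 1 of these symbols and no other. They are 8 of the 18193 genes with such a probe set, and they hold 16 probe sets. All mice were C57BL/6 males of 2 months. The knockouts carry a KO-first allele of *Ccnyl1* with a LacZ cassette, which is not limited to a cell type, and came from heterozygous parents, while the WT mice carry no targeted allele. Each mouse gave 1 Affymetrix array of whole testis, and the values are MAS 5.0 signals, intensities on a linear scale. Differences are on log2(signal + 16), where a positive log2 fold change is a higher signal in *Ccnyl1*-/- testes, and adjusted p-values are from limma over all 32438 probe sets with a mean signal of at least 32.

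Selenoproteins contain selenocysteine, an amino acid that is read from a UGA codon. Selenoprotein P carries selenium through the blood, and in the testis the Sertoli cells take it up through the receptor encoded by *Lrp8*. Much of the testicular selenium enters GPX4 in spermatids. In mature sperm this enzyme is oxidised together with the cysteine-rich SMCP into the capsule around the mitochondria of the midpiece. Thioredoxin enzymes of the spermatid also act on thiol groups of proteins. Loss of selenoprotein P thins the annulus at the end of the midpiece, a defect that the study also describes in *Ccnyl1*-/- sperm, which is the reason to look at these genes here.

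The arrays had the same trimmed mean, and correlated with each other between 0.977 and 0.980 across probe sets. *Ccnyl1* fell to 40.4% of its WT signal (log2 fold change -1.29, adjusted p = 0.00463 from limma). Of the marker lists for spermatogonia, spermatocytes, round and elongating spermatids, Sertoli, Leydig, peritubular and macrophage cells, every measured gene was above the minimum signal. The summed signal of the 10 elongating spermatid markers was 257424 and 264646 in WT and 260727 and 249651 in the knockouts. In whole tissue, fewer cells of a type and less RNA per cell cannot be told apart.

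None of the 8 genes differed between the genotypes past the test. Of the 15 probe sets that were bright enough to test, 0 had an adjusted p under 0.05, with a smallest adjusted p of 0.645 from limma, while 0.0123% of all probe sets were called. At an unadjusted p under 0.05 from limma, 3 were lower and 2 higher, where 2.59% and 3.47% of all probe sets were. For 14 of the 15 the 95% interval from limma stayed under a 2-fold change in both directions (75.8% of all probe sets). A 2-fold change of *Selenop*, *Lrp8*, *Gpx4*, *Smcp* or the sperm thioredoxins lay outside the limma intervals of each of their tested probe sets. These intervals rest on a variance partly shared across probe sets. Intervals from the spread of each probe set alone, with 2 mice per genotype, are not reported here.

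**Figure D1:**
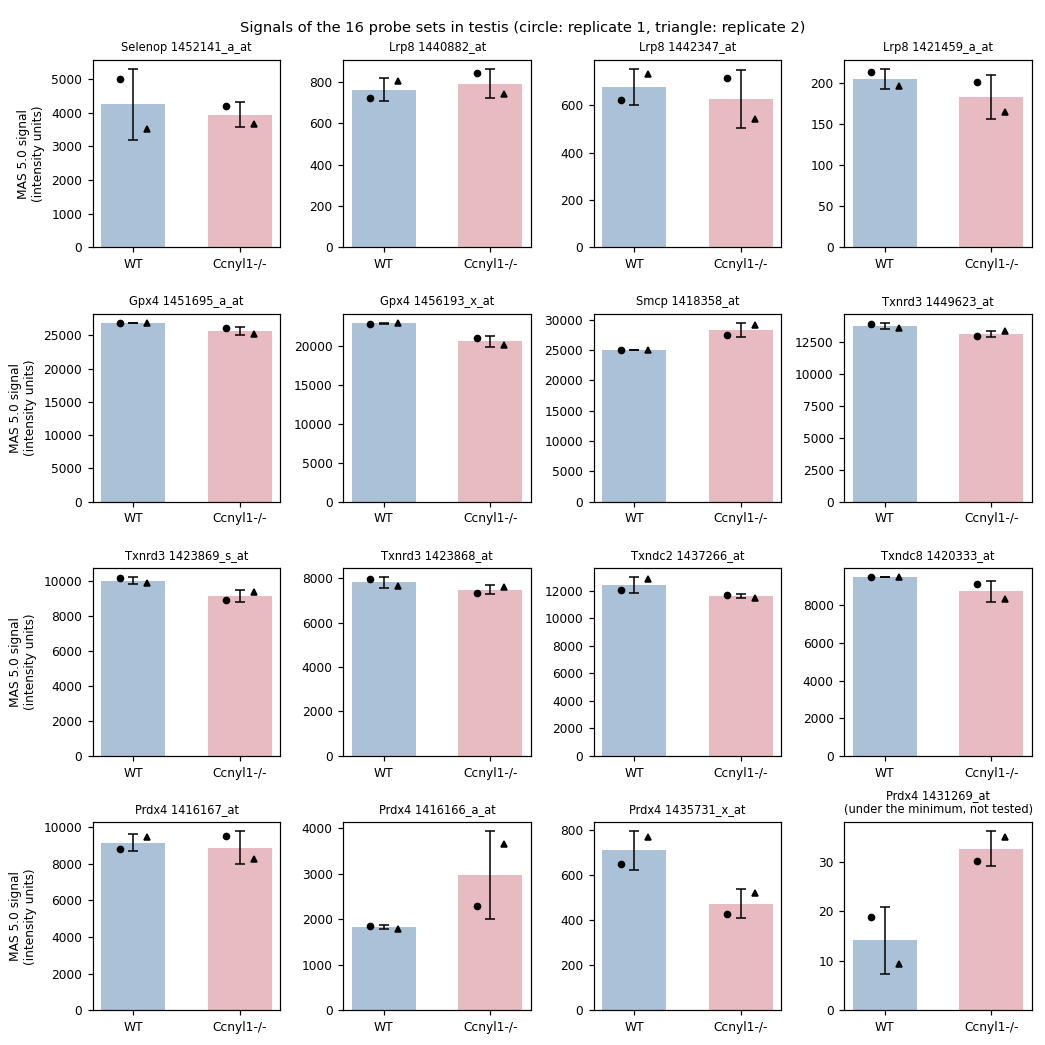
MAS 5.0 signals (intensity units, linear axis from 0) of the 16 probe sets of the 8 genes in WT and *Ccnyl1*-/- testes, where bars give means (n = 2 mice), whiskers the SD and points single mice. Both *Smcp* signals of *Ccnyl1*-/- mice (27488 and 29122) lie above those of WT mice, both *Gpx4* probe sets lie below, and the probe sets of *Prdx4* go different ways.

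The genes of selenium supply varied as much within a genotype as between them. *Selenop* (1452141_a_at) had signals of 5000 and 3507 in the WT mice, against 4205 and 3681 in the *Ccnyl1*-/- mice. The knockouts lay between the WT mice, and in both genotypes replicate 1 was the brighter. The log2 fold change was -0.09 (standard error 0.15, 95% interval -0.42 to 0.25, adjusted p = 0.947 from limma), and it ran from -0.34 to 0.17 with 1 mouse left out. The summed signals of Leydig, macrophage, Sertoli, peritubular, spermatogonia and epididymis markers were also higher in replicate 1 of each genotype. This did not hold for every gene: 3 of the 5 Leydig, 3 of the 7 macrophage, 1 of the 7 Sertoli and 4 of the 6 epididymis markers measured had this order. The labels do not pair the replicate numbers, and the share of all probe sets with this order is not reported here. The 5 measured Leydig markers had summed signals of 7149 and 3935 in WT and 9293 and 5220 in the knockouts. The 7 macrophage markers summed to 3796 and 2906 in WT and 2784 and 2434 in the knockouts, and the 7 measured Sertoli markers to 3041 and 2959 and to 3323 and 3269. The Leydig markers *Insl3*, *Lhcgr* and *Hsd3b6* were not analysed here. No measured Leydig, macrophage or Sertoli marker was under the minimum signal. The part of any of these cells or of epididymis tissue in the *Selenop* values was not tested.

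*Lrp8*, which encodes the receptor on Sertoli cells, was read by 3 probe sets, and the genotypes overlapped on each in the signals as deposited. The brightest (1440882_at) had 725 and 804 in WT and 844 and 742 in the knockouts. Its log2 fold change was 0.05 (95% interval -0.22 to 0.32), and -0.03 with arrays scaled to one median. The others had log2 fold changes of -0.12 on 1442347_at (622.8 and 731 in WT, 714 and 539.8 in *Ccnyl1*-/- mice) and of -0.16 on 1421459_a_at (214 and 197 in WT, 201 and 164 in *Ccnyl1*-/- mice). *Ccnyl1*-/- replicate 2 was the lower knockout on all 3, and without it the 3 values were 0.14, 0.08 and -0.02. On 1421459_a_at both knockouts lay below both WT mice with quantile normalization and with arrays scaled to one median.

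The values of the capsule genes lay close to WT, above it for *Smcp* and below it for *Gpx4*, and none passed the test. *Smcp* (1418358_at), which encodes the cysteine- and proline-rich capsule protein, had 24994 and 25035 in WT and 27488 and 29122 in the knockouts. Both knockouts lay above both WT mice, at 113% of the WT mean. The log2 fold change was 0.18 (standard error 0.04, adjusted p = 0.645 from limma), with an interval from 106% to 121% of WT. It stayed positive when either mouse of a genotype was left out (0.14 to 0.22) and under each scaling, at 0.21 with quantile normalization and 0.10 with arrays scaled to one median.

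*Gpx4*, which encodes the selenoenzyme of the capsule, was read by 2 probe sets that both lay lower in *Ccnyl1*-/- testes. The brighter (1451695_a_at) had 26812 and 26843 in WT and 26035 and 25152 in the knockouts, and the log2 difference was -0.07 (SE 0.04, adjusted p = 0.840 from limma). The dimmer (1456193_x_at) had 22844 and 22918 in WT and 21051 and 20089 in the knockouts, and the log2 difference was -0.15 (SE 0.04, adjusted p = 0.659 from limma). On both, the WT mice were closer to each other than the knockouts were, and both knockouts stayed below under quantile normalization and with arrays scaled to one median. The first probe set had -0.15 with arrays scaled to one median and -0.04 without *Ccnyl1*-/- replicate 2. The intervals ran from 89.9% to 101% of WT on the first and from 84.2% to 95.9% on the second. The suffix _x_at of the second marks probes that can also match other sequences, and _a_at of the first marks probes for several transcripts of the gene. *Gpx4* is made as cytosolic, mitochondrial and nuclear forms from different starts, and the values here do not tell them apart.

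The sperm thioredoxin genes had small negative log2 fold changes, and none passed. *Txnrd3*, which encodes thioredoxin glutathione reductase, a selenoenzyme of spermatids, had 13970 and 13657 in WT and 13022 and 13368 in the knockouts on its brightest probe set (1449623_at). Its log2 fold change there was -0.07, and 1423869_s_at and 1423868_at had -0.13 and -0.06 (adjusted p = 0.810 and 0.894 from limma). On the probe set with -0.13 the WT mice had 10150 and 9859 and the knockouts 8896 and 9389. On the third the margin was narrow: the lower WT mouse had 7638 and the higher knockout 7622.

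*Txndc2* (1437266_at), whose thioredoxin sits in the developing sperm tail, had 12045 and 12839 in WT and 11732 and 11504 in the knockouts. The log2 fold change was -0.10 (standard error 0.05, adjusted p = 0.832 from limma), and -0.05 without WT replicate 2. *Txndc8* (1420333_at), whose thioredoxin is found in the Golgi and acrosome of spermatids, had 9486 and 9480 in WT and 9116 and 8345 in the knockouts. The log2 fold change was -0.12 (standard error 0.06, adjusted p = 0.830 from limma), and -0.06 without *Ccnyl1*-/- replicate 2. All 5 probe sets of these 3 genes had both knockouts below both WT mice, an order that 15.3% of all probe sets had, and 35.9% of those with a mean signal of at least 5000. With quantile normalization 3 of the 5 lost it (*Txndc2*, at -0.06, and 1449623_at and 1423868_at of *Txnrd3*, at -0.03 and -0.02).

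**Figure D2:**
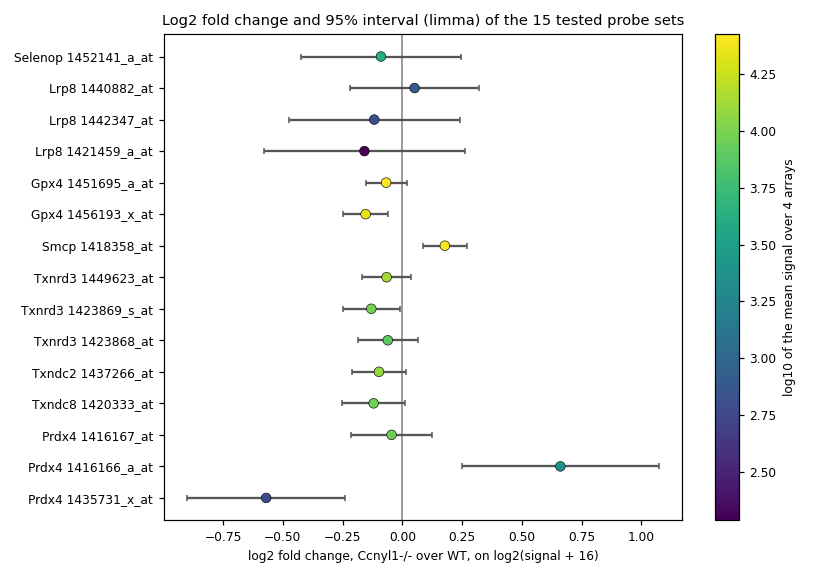
Difference of *Ccnyl1*-/- from WT testis on the log2 scale (points, coloured by the mean signal) with the 95% interval from limma (bars), 1 row per tested probe set. Bright probe sets such as those of *Gpx4* and *Smcp* have narrow intervals, and the widest, that of the dimmest *Lrp8* probe set, runs from -0.58 to 0.26.

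*Prdx4*, which encodes a peroxiredoxin of the endoplasmic reticulum and the acrosome, gave values that depended on the probe set. The brightest (1416167_at) had 8807 and 9467 in WT and 9502 and 8241 in the knockouts, a log2 fold change of -0.05 with overlapping genotypes. The probe set 1416166_a_at had 1852 and 1792 in WT and 2287 and 3650 in the knockouts. Both knockouts were higher there, by a log2 difference of 0.66 (SE 0.18, adjusted p = 0.686 from limma), and the knockouts were 0.67 apart from each other on the same scale. Most of this rests on *Ccnyl1*-/- replicate 2: the log2 fold change was 0.33 without it, and 0.996 without replicate 1, the only run with 1 mouse left out in which a member passed (adjusted p = 0.0104 from limma). In that run a single knockout was assumed to vary like the WT pair, which lay 0.05 apart.

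The remaining *Prdx4* probe sets also disagreed. Of these, 1435731_x_at had 648 and 767 in WT and 426 and 517 in the knockouts, a log2 difference of -0.57 (SE 0.14, adjusted p = 0.647 from limma). Both knockouts were lower, with values from -0.70 to -0.44 when 1 mouse was left out. The last, 1431269_at, had 18.9 and 9.33 in WT and 30.2 and 35.2 in the knockouts, under the minimum signal in the mean, and was not tested. These 4 probe sets thus give no single direction for *Prdx4*. Their places on the transcripts were not analysed here.

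**Figure D3:**
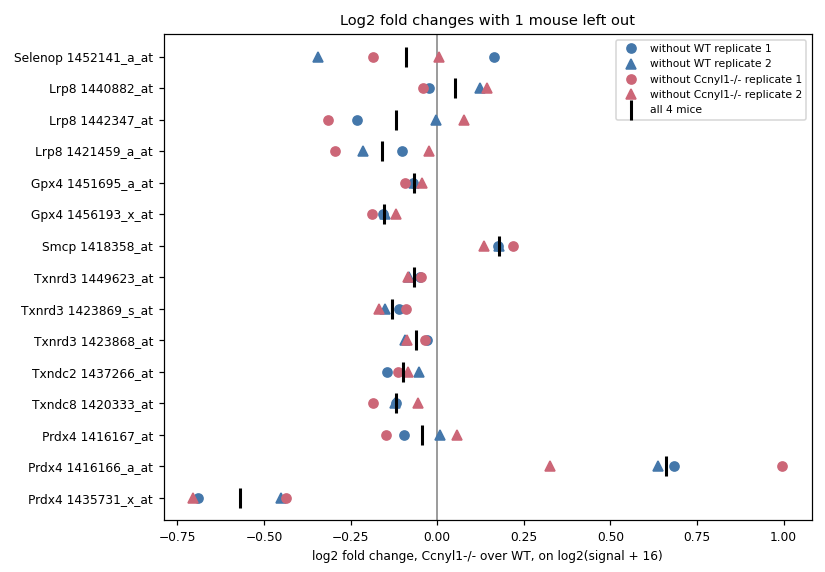
Log2 fold changes of the 15 tested probe sets with all 4 mice (black ticks) and with 1 mouse left out (circles for replicate 1 and triangles for replicate 2, blue for WT and red for *Ccnyl1*-/-). The values of *Gpx4*, *Smcp*, *Txnrd3*, *Txndc2* and *Txndc8* stay on their side of 0, while *Selenop*, the 2 brighter *Lrp8* probe sets and the brightest *Prdx4* probe set cross it.

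Over the 15 tested probe sets, 12 were lower and 3 higher in the mean of the knockouts, and the median log2 fold change was -0.09 against 0.02 over all tested probe sets. Of all tested probe sets, 45.2% had a negative log2 fold change. By the brightest probe set of each gene, 6 of the 8 genes were negative and 2 positive. Both knockouts lay below both WT mice at 8 of the 15 probe sets, from 5 genes, where 15.3% of all probe sets had this order. Both lay above at 2, where 20.6% did. Most of the 8 are bright, and bright probe sets as a class lay lower in *Ccnyl1*-/- testes: with a mean signal of at least 5000, 67.6% of 1621 probe sets had a negative log2 fold change and 35.9% had both knockouts below both WT mice, as had 7 of the 9 probe sets of these genes that are as bright. The minimum of 5000 was chosen after the values were seen. Probe sets of 1 gene are not independent, and the order depended on the scaling. With quantile normalization 6 of the 15 had both knockouts below, against 17.5% of all probe sets: *Txndc2* and 2 *Txnrd3* probe sets lost this order and *Lrp8* 1421459_a_at gained it. Of the bright ones 22.9% had it, while 53.8% of the bright ones were negative. With arrays scaled to one median 10 of the 15 had it, with *Lrp8* 1421459_a_at and *Prdx4* 1416167_at added, against 24.8% of all probe sets and 63.9% of the bright ones.

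The start regions of the 8 genes were searched for the cAMP response element, the site through which CREM activates many genes of spermatids. The windows, from RefSeq on GRCm38.p6, hold 250 bases before and 50 after each annotated start, and all 8 genes matched, with 16 windows. The full element TGACGTCA, on either strand, was in 0 of the 16 and in 1.79% of all 32851 windows. Its first letters TGACG, which lie within the full element, were in 9 of the 16 windows, from 4 genes (*Selenop*, *Lrp8*, *Gpx4* and *Prdx4*), and in 20.8% of all windows. The windows of *Selenop* and some of *Gpx4* overlap, so that 1 site can count in several windows, and the 9 are not independent. A variant that differs in 1 base, TGATGTCA, was noticed in the sequences and then counted: it was in 3 of the 16 windows, 1 each of *Smcp*, *Txndc2* and *Txndc8*, and in 3.62% of all windows. The stretches around it are given because they hold a letter pattern that these 3 spermatid genes share, with the variant or its reverse complement in capitals.
Smcp: ggagagtattaTGATGTCAtaaaagagctg
Txndc8: gacccatccaaTGATGTCAtagaaaagtta
Txndc2: ggaagcctcatTGACATCAcaatgtcatca
All 3 are on the minus strand and read 5′ to 3′ here, at chr3:92589031-92589060 for *Smcp*, chr4:58009132-58009161 for *Txndc8* and chr17:65642315-65642344 for *Txndc2*. The variant begins at base 25 of the annotated *Smcp* transcript, while 16 bases separate it from the start of *Txndc8* and 121 from that of *Txndc2*. The 3 genes did not move as one: *Smcp* had a log2 fold change of 0.18, and *Txndc8* and *Txndc2* had -0.12 and -0.10. A match of letters is a description and not a measured binding site.

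The other genes of selenium use and thiol chemistry were described in the same way, each by its brightest tested probe set (0 passed at an adjusted p under 0.05 from limma). Over all 15268 genes tested the median log2 fold change was -3.64e-04, and over the 8 genes above it was -0.07.

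Of 19 other selenoprotein genes, 12 were positive and 7 negative on the log2 scale (median 0.04). *Txnrd2*, the mitochondrial thioredoxin reductase, had 97.6 and 32.5 in WT and 127 and 97.7 in the knockouts (log2 fold change 0.78), while another of its probe sets had -0.57. *Dio2*, which activates thyroid hormone, had 41.3 and 83.0 in WT and 104 and 99.6 in the knockouts (0.65). Both are dim, and their WT mice differed widely. *Selenoo*, whose product is a mitochondrial selenoprotein, had 315 and 296 in WT and 211 and 207 in the knockouts (-0.51, adjusted p = 0.729 from limma). Both knockouts lay below both WT mice, as at 15.3% of all probe sets. Other genes of the list did not overlap either: *Txnrd2*, *Dio2*, *Gpx3* and *Txnrd1* were higher, and *Selenon*, *Selenov*, *Selenow* and *Selenos* lower. Over all probe sets, 20.6% had both knockouts above both WT mice. *Gpx3* was higher, with 165 and 143 in WT and 212 and 210 in the knockouts (0.42). *Selenon* was lower, with 74.8 and 78.9 in WT and 52.5 and 38.5 in the knockouts (-0.60). *Gpx1*, the glutathione peroxidase that most cells hold, had 0.05. The list's median was -0.04 with arrays scaled to one median and -0.02 without *Ccnyl1*-/- replicate 1, so that its sign is not settled.

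Of 10 genes that make selenocysteine and insert it, 8 were positive and 2 negative (median 0.04, -0.03 with arrays scaled to one median and -0.02 without *Ccnyl1*-/- replicate 1). *Secisbp2l* had 466 and 402 in WT and 536 and 492 in the knockouts (log2 fold change 0.24), and its paralog *Secisbp2*, whose protein binds the selenocysteine insertion element, had 712 and 845 and then 665 and 711 (-0.17). *Sephs2*, which makes the selenium donor and is itself a selenoprotein, had 6556 and 6377 in WT and 6723 and 6391 in the knockouts (0.02). By their brightest probe sets all 10 lay between -0.17 and 0.24, while another probe set had 0.62 for *Sepsecs* and 0.29 for *Pstk*.

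Of 5 tested receptors related to *Lrp8*, 2 were positive and 3 negative (median -0.11, and 0.24 with a minimum signal of 100). *Lrp2*, which encodes megalin, the kidney receptor for selenoprotein P, had 114 and 84.5 in WT and 84.2 and 90.6 in the knockouts (log2 fold change -0.15, and 0.27 on another probe set). *Lrp6*, a Wnt co-receptor, had 0.34. *Vldlr* had -0.69 (0.11 on another probe set), a value that rests on a signal of 6.75 in *Ccnyl1*-/- replicate 1 against 71.1 in replicate 2.

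Of 16 other thioredoxin and peroxiredoxin genes, 6 were positive and 10 negative (median -0.04). *Txnip*, which encodes an inhibitor of thioredoxin, had 2010 and 1666 in WT and 1327 and 1222 in the knockouts. Both knockouts lay below both WT mice (log2 fold change -0.52, adjusted p = 0.645 from limma), and its dimmer probe set had -0.02. *Nme8*, *Srxn1*, *Glrx2* and *Glrx5* had the same order, as had 15.3% of all probe sets. For *Glrx*, *Txnrd1* and *Txnrd2* both knockouts lay above, as at 20.6% of all probe sets. *Nme8*, a thioredoxin gene of the sperm tail, had 4072 and 5099 in WT and 3721 and 3827 in the knockouts (-0.27, adjusted p = 0.789 from limma). *Txnrd1*, the cytosolic thioredoxin reductase, had 0.19. *Glrx*, a glutaredoxin gene, had the largest difference of the list (1.20), on a dim probe set with 8.83 and 46.7 in WT and 75.6 and 73.3 in the knockouts, while its other probe set had -0.01.

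Of 12 genes of the glutathione system, 6 were positive and 6 negative (median -7.59e-04). *Gpx7* (log2 fold change 1.07) and *Gpx5*, a peroxidase of the epididymis (0.61), differed most and were both dim, with signals from 11.04 to 95.03 and from 5.02 to 66.0. Without *Gpx5* itself, the 5 other epididymis markers measured summed to 328 and 269 in WT and 423 and 328 in the knockouts, with *Lcn5* and *Adam28* under the minimum signal, and their part in the *Gpx5* values was not tested.

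Of 15 genes of the mitochondrial sheath and midpiece, 6 were positive and 9 negative (median -0.03). *Cyct*, which encodes the testis form of cytochrome c, had 5277 and 5505 in WT and 5727 and 6522 in the knockouts (log2 fold change 0.18, adjusted p = 0.810 from limma). *Spata18* had 10777 and 11824 in WT and 10486 and 9567 in the knockouts (-0.17, adjusted p = 0.797 from limma). Neither pair of genotypes overlapped. Over all probe sets, 20.6% had both knockouts above and 15.3% both below, and 35.9% of the bright ones had both below. Both knockouts also lay below both WT mice for *Tbc1d21*, *Armc12*, *Vdac2*, *Septin4* and *Slc26a8*, and above for *Slc25a31*. *Septin4* and *Slc26a8*, genes of the annulus, had -0.05 and -0.07, and 0.03 and 0.11 on another probe set each. By their brightest probe sets all 15 lay between -0.17 and 0.18, while another probe set of *Mfn1* had -0.34.

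**Figure D4:**
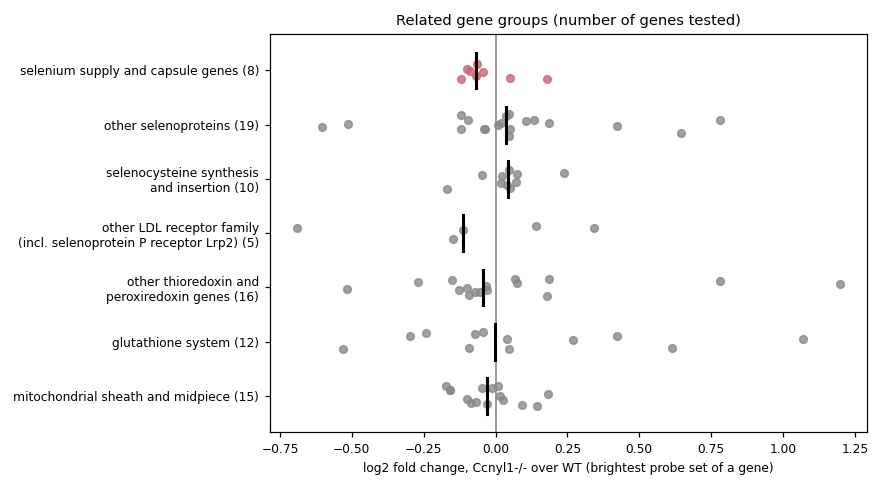
Differences on the log2 scale (*Ccnyl1*-/- over WT testis) of the 8 genes (red) and 6 related groups (grey), 1 point per gene by its brightest tested probe set, with the median as a black line. The red row, labelled selenium supply and capsule genes, also holds the sperm thioredoxin genes and *Prdx4*. The medians lie between -0.11 and 0.04, and the point farthest from 0 is *Glrx* at 1.20.

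The signals most like those of these genes over the 4 mice were found among probe sets with a mean signal of at least 500, by the root mean square distance of log2 signals centred on their own mean. Nearest to *Smcp* were *Ap4b1* (0.0054), *Txnrd1* (0.0087) and *Ints14* (0.0089), among 9347 probe sets. *Txnrd1* had 760 and 752 in WT and 833 and 892 in the knockouts. Nearest to *Gpx4* were *Ccs*, whose product loads copper into superoxide dismutase (0.0049), *Ddx39b* (0.0052) and *Asrgl1* (0.0055). Nearest to *Selenop* were *1700007E05Rik* (0.031), *Cldn34d* (0.031) and *Serpina5*, which encodes a protease inhibitor (0.036), with 2077 and 1367 in WT and 1688 and 1436 in the knockouts for the last. With 4 arrays, many probe sets share an order of mice, and these likenesses are descriptions only.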

How the data were processed

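Testis RNA of 2 WT and 2 *Ccnyl1*-/- mice was read on 1 Affymetrix array each, and per the labels the arrays of a genotype are biological replicates. The authors deposited MAS 5.0 signals (intensities on a linear scale; the submitters' notes name MAS5), background-corrected and scaled by 1 factor per array. Their trimmed mean is above the target that the methods state, so the signals and the minimum values used here are on the scale of the deposited files. The number of arrays limits the precision. Of 45101 probe sets, 64 controls were left out. The annotation pairs 34945 with 1 gene, 932 with several and 9160 with none, and 0 symbols differed from RefSeq. Levels served to pick the brightest probe set of a gene, to set minimum signals and to sum markers; they are not compared as RNA amounts between genes. Log2(signal + 16) was fitted with the genotype alone by lmFit and eBayes of limma 3.58.1 (R 4.3.3, with the prior variance following the signal), over the 32438 probe sets with a mean signal of at least 32, with Benjamini-Hochberg adjustment and a threshold of 0.05. The fit was run on simulated data whose variances were drawn from the prior of the fit itself, so that this run cannot test the prior. Its outcome is not reported here. The genes named with values are every probe set of the 8 members, *Ccnyl1*, the 2 genes of each related list with the largest difference and 9 genes set by role (*Septin4*, *Slc26a8*, *Sephs2*, *Secisbp2*, *Lrp2*, *Txnrd1*, *Gpx1*, *Gpx5* and *Nme8*). The 3 nearest likenesses of *Selenop*, *Gpx4* and *Smcp* are named too. *Selenoo*, *Selenon*, *Gpx3*, *Sepsecs*, *Pstk*, *Mfn1* and *Txnip* were chosen after their values were seen. So were *Selenov*, *Selenow*, *Selenos*, *Srxn1*, *Glrx2*, *Glrx5*, *Tbc1d21*, *Armc12*, *Vdac2* and *Slc25a31*, which are named only for the order of their mice. Members and lists were chosen with earlier results of these data known. Alternatives were other offsets, minimum signals, scalings and variance estimates, the replicate number as a block, the methods' t-test and leaving out each mouse.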

Additional observations from a re-analysis of the deposited data

How the results depend on the processing

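No member passed the test with all 4 mice under any alternative, among them the replicate block (smallest adjusted p 0.281 from limma), eBayes without the trend (0.840) and the methods' t-test (0.850). At an unadjusted p under 0.05, 5 member probe sets were found with the main limma fit. There were 4 with quantile normalization or with no minimum signal, and 7 with arrays scaled to one median. Only 1 was found with eBayes without the trend, and 1 with the methods' t-test. With 1 mouse left out, 0 to 1 members passed, the 1 being the _a_at probe set of *Prdx4* without *Ccnyl1*-/- replicate 1. Over all probe sets, 4 were called, 7 with arrays scaled to one median and 14 with the replicate block, and 0 with eBayes without the trend and with the methods' t-test, where 1279 higher and 627 lower, and 1107 higher and 793 lower, had an unadjusted p under 0.05. With 1 mouse left out the calls were 11 (without *Ccnyl1*-/- replicate 1) to 57 (without WT replicate 1), 47 when WT replicate 2 was left out and 14 when *Ccnyl1*-/- replicate 2 was, and each of these runs held the 4 calls. The replicate numbers do not pair the mice by the labels, and deviations of the same-numbered mice correlated at 0.01.

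Of the member log2 fold changes, 8 of 210 alternative values turned in sign. The minimum signals, variance estimates, t-test and replicate block leave a log2 fold change as it is, so they could not turn one. Only the offsets, scalings and left-out mice could. With arrays scaled to one median, the brightest *Lrp8* probe set had -0.026. With 1 mouse left out it ran from -0.040 to 0.14, the next *Lrp8* probe set from -0.31 to 0.078, *Selenop* from -0.34 to 0.17 and the brightest *Prdx4* probe set from -0.15 to 0.057. The medians of the lists moved by more than 1 SD between replicates as follows. With arrays scaled to one median, other selenoproteins had -0.042, selenocysteine genes -0.029, thioredoxin and peroxiredoxin genes -0.12 and midpiece genes -0.11. Midpiece genes had -0.0078 with quantile normalization. When the probe sets of a gene were averaged, midpiece genes had -0.0070, glutathione genes 0.092 and the receptors 0.024. The receptors had 0.24 with a minimum signal of 100. With 1 mouse left out, other selenoproteins ran from -0.017 to 0.056, selenocysteine genes from -0.023 to 0.091 and the receptors from -0.19 to 0.038. The cause was not tested.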
